A study of Mus musculus with 10 samples.

Results

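Sox2, Sox4, Sox5, Sox9, Sox10, Sox11 and Sox18 encode transcription factors of the Sox family, and all probe-sets assigned to these 7 genes were followed in 5 cell populations of the young mouse hair follicle and its dermis. The array carried 18 probe-sets for them, of 33 for 18 Sox family genes (Sry included) and of 22626 in all, which named 12393 genes. Every mouse was double transgenic for Lef1-RFP, in which a fragment of the human Lef1 promoter drives a red fluorescent protein, and K14-H2BGFP, in which the keratin 14 promoter drives a green histone fusion in skin epithelium. Cells of 4-day-old (P4) backskin were sorted into hair matrix (Mx, GFP-low and RFP-negative), outer root sheath (ORS, GFP-high and RFP-negative), dermal papilla (DP, RFP-high and GFP-negative), a dermal fraction (DF, negative for both reporters) and melanocytes (Mc, RFP-high, GFP-negative and CD117-positive). DP and DF cells were taken after depletion of cells with CD34, CD45 or CD117, so that each sorted group is defined by its reporters and not by a single lineage. Each population was measured on 2 Affymetrix arrays, described as independent datasets, and the p-values cover only the spread between them.

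Sox factors bind DNA through a shared HMG box, bend it, and act mostly with partner proteins, so that related members can drive different programs in different cells. They fall into groups by sequence: Sox2 belongs to SoxB1, Sox4 and Sox11 to SoxC, Sox5 to SoxD, Sox9 and Sox10 to SoxE, and Sox18 to SoxF. In skin, Sox9 is known for the outer root sheath and its stem cells, Sox10 for melanocytes and peripheral glia, Sox18 for vessels and, in mutant mice, for coat defects, and Sox2 for the dermal papilla of some hair types.

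The populations carried the markers of their labels, and each also carried some markers of other populations. A signal of at least 200 in both arrays of a population was taken as expressed, and 8054 probe-sets that met this in at least 1 population were tested. All 13 melanocyte markers reached 200 in Mc and all 11 ORS markers in ORS. Of 12 DP markers on the array 8 were tested, and the others reached 200 in no population. The 8 tested reached it in DP and were highest there. All 9 tested endothelial markers reached 200 in DF, a sort made after CD34 depletion, and 11 of 13 melanocyte markers reached it in DP, 6 of 13 in DF. All 8 tested pericyte and smooth muscle markers reached 200 in DF, 6 of them in DP, 5 in ORS and 2 in Mx. Of 9 tested Schwann and glial markers 6 reached it in DF, 7 in DP, 3 in Mc, and 2 each in Mx and ORS. All 11 tested matrix markers reached it in Mx, 8 in ORS, 6 in DP, and 3 each in DF and Mc. Of the 11 ORS markers 5 reached it in Mx, 5 in DF, 3 in DP and 2 in Mc. Of 9 tested dermal fibroblast markers 8 reached it in DF, 7 in DP, and 3 each in Mx, ORS and Mc. None of the 9 immune or 8 skeletal muscle markers reached it in any population. The median signal of an array ran from 49.9 to 90.9. In these sorted populations, fewer cells of a type and less RNA per cell cannot be told apart.

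Of the 18 probe-sets, 10 passed the signal filter, and they covered 5 of the 7 genes. The other 8 probe-sets included all of Sox5 and Sox11. A probe-set was placed in the signature of a population where it was at least 2-fold higher there than in each of the other 4, and where limma on log2(signal + 50) called each of the 4 differences at an adjusted p under 0.05. By this measure 5 probe-sets of 4 genes lay in a signature: Sox9 with both of its probe-sets in that of ORS, Sox10 with 1 in that of Mc, and Sox2 and Sox18 with 1 each in that of DP. Among all tested probe-sets 11.4% lay in some signature, 1.14% in that of Mx, 1.85% in that of ORS, 3.46% in that of DF, 2.33% in that of DP and 2.66% in that of Mc. None of the 7 genes lay in the signature of Mx or DF.

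**Figure D1:**
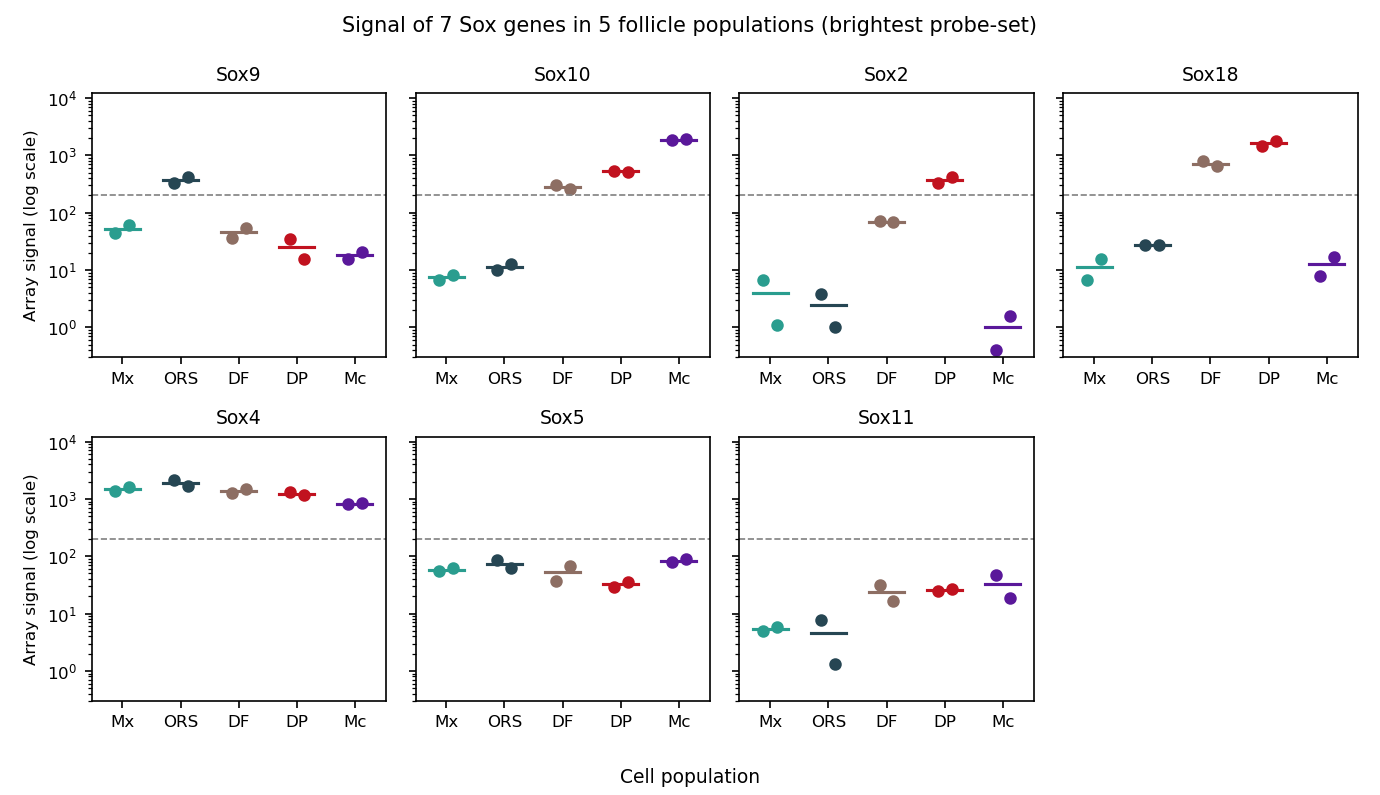
Array signal (log scale) of the 7 Sox genes in Mx, ORS, DF, DP and Mc, for the brightest tested probe-set of each gene or, for Sox5 and Sox11, the brightest probe-set. Points are the 2 arrays of a population, bars their mean, and the dashed line is a signal of 200; Sox9 passed it only in ORS and Sox2 only in DP, Sox18 in DP and DF, Sox10 in Mc, DP and DF, Sox4 in all 5, and Sox5 and Sox11 in none.

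Sox9, a SoxE factor required for the stem cells of the follicle and for cartilage, was an ORS gene by both of its probe-sets. The probe-set 1451538_at gave signals of 335.9 and 421.0 in ORS, 44.9 and 61.0 in Mx, 36.8 and 54.1 in DF, 34.9 and 15.6 in DP, and 15.5 and 20.6 in Mc. Both ORS arrays were high and the other 8 low, with no overlap. ORS exceeded Mx, the next population, by 2.05 ± 0.20 on the log2 scale (SE), 4.15-fold, with a limma adjusted p of 1.35e-05, and exceeded DF 4.49-fold, DP 5.71-fold and Mc 6.27-fold. These folds are on the log2(signal + 50) scale, which understates differences from low signals.

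The second Sox9 probe-set, 1424950_at, had the same order at its top. With it ORS gave 285.9 and 384.6, Mx gave 19.3 and 34.9, and the 6 arrays of DF, DP and Mc lay between 0.8 and 3.1. The ORS arrays stood apart, and the other 8 arrays were all far under 200. ORS was 4.98-fold above Mx (limma adjusted p 4.33e-06). Mx was above DF by 0.54 on the log2 scale, above DP by 0.56 and above Mc by 0.58, with limma adjusted p of 0.0301, 0.0229 and 0.022, all between signals too low to count as expressed. With 1451538_at, Mx was above Mc by 0.59 (adjusted p 0.0275), whereas its difference from DF, 0.11 (95% interval -0.33 to 0.55, adjusted p 0.667), did not pass the test in limma. The mean Mx signal was 14% of that in ORS with 1451538_at and 8.08% with 1424950_at.

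Genes known to act with or downstream of Sox9 in cartilage and follicle fell into separate groups. Of 15 on the array, 8 were tested, and 6 of these were higher in ORS than in Mx, with a median difference of 2.36 on the log2 scale where all tested probe-sets had a median of 0.11. Over all tested probe-sets 15.4% were higher in ORS than in Mx and 19.4% differed in either direction. Of the 8 tested genes 6 reached 200 in ORS and 1 in Mx, so the signal filter favoured ORS in this count. The largest differences were those of Krt15, a keratin of basal and bulge cells, Lgr5, a receptor of follicle stem cells, Tcf7l1, a repressor of Wnt target genes, and Inhbb, an activin subunit. Of these, Krt15, Lgr5 and Tcf7l1 were also among the ORS markers, so the count is not independent of that list. Krt15 had signals of 5033.6 and 6260.9 in ORS against 138.7 and 266.3 in Mx, and Lgr5 had 1039.8 and 1279.1 against 55.0 and 98.0. The 2 tested cartilage genes did not pass the test between ORS and Mx: Col11a1, a fibrillar collagen chain, and Acan, the cartilage proteoglycan, were highest in DF, at 3123.1 and 2391.6 and at 658.7 and 576.9. Col2a1, the main cartilage collagen, did not exceed 46.3 on any array.

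Sox10, the SoxE factor of the pigment and glial lineages, was highest in Mc and not confined to it. Its brightest probe-set, 1451689_a_at, gave signals of 1835.2 and 1894.1 in Mc, 537.2 and 517.8 in DP, 306.7 and 255.8 in DF, 10.2 and 12.6 in ORS, and 6.7 and 8.3 in Mx. The arrays formed 4 steps: Mc, then DP, then DF, then both epithelial populations together near the floor. Mc exceeded DP by 1.73 ± 0.17 (SE), 3.32-fold, with a limma adjusted p of 5.57e-06, and exceeded DF 5.8-fold, ORS 31.2-fold and Mx 33.3-fold. DP exceeded DF 1.75-fold (limma adjusted p 0.00472). ORS and Mx differed by 0.09, with a 95% interval of -0.28 to 0.47.

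The other Sox10 probe-sets gave a flatter picture. For 1424985_a_at the signals were 332.2 and 519.4 in Mc, 183.1 and 189.2 in DP, 166.5 and 175.2 in DF, 72.4 and 65.7 in ORS, and 62.5 and 75.1 in Mx. Mc was again above every other array, but it exceeded DP by 1.98-fold, just under the 2-fold limit of a signature (limma adjusted p 0.00253), and DP was not separated from DF (0.10, adjusted p 0.807). The third, 1425369_a_at, stayed under 200 and was not tested, with 67.3 and 84.3 in Mc, 56.3 and 58.1 in DP, and 62.6 and 49.1 in DF.

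Some pigment genes followed Sox10 closely across the populations and others did not. The genes nearest to it over the 10 arrays, of 5252 compared, were Pax3, a neural crest factor (Pearson r 0.995), Fabp7, a fatty acid binding protein of glia and neural crest (0.994), Qpct (0.994), Mgat4b (0.993) and Kif3c (0.992); the arrays are pairs from 5 populations, so r describes the shared population pattern. With 1451689_a_at the mean Sox10 signal in DP was 28.3% of that in Mc, against 29.7% for Pax3 and 33.4% for Fabp7. In DF it was 15.1% of Mc, against 13.1% for Pax3 and 14.4% for Fabp7. The other tested probe-set, 1424985_a_at, was less close to these genes, with 43.7% of Mc in DP and 40.1% in DF. Across the 13 melanocyte markers the DP level ran from 10.7% of Mc for Mc1r, the melanocortin receptor, to 98.2% for Dct, a melanin synthesis enzyme, with a median of 32.4%. Between Mc and DP, 9 of the 13 were higher in Mc and none in DP, with a median difference of 1.65 on the log2 scale against -0.09 for all tested probe-sets, of which 11.1% were higher in Mc and 30.5% differed in either direction.

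**Figure D2:**
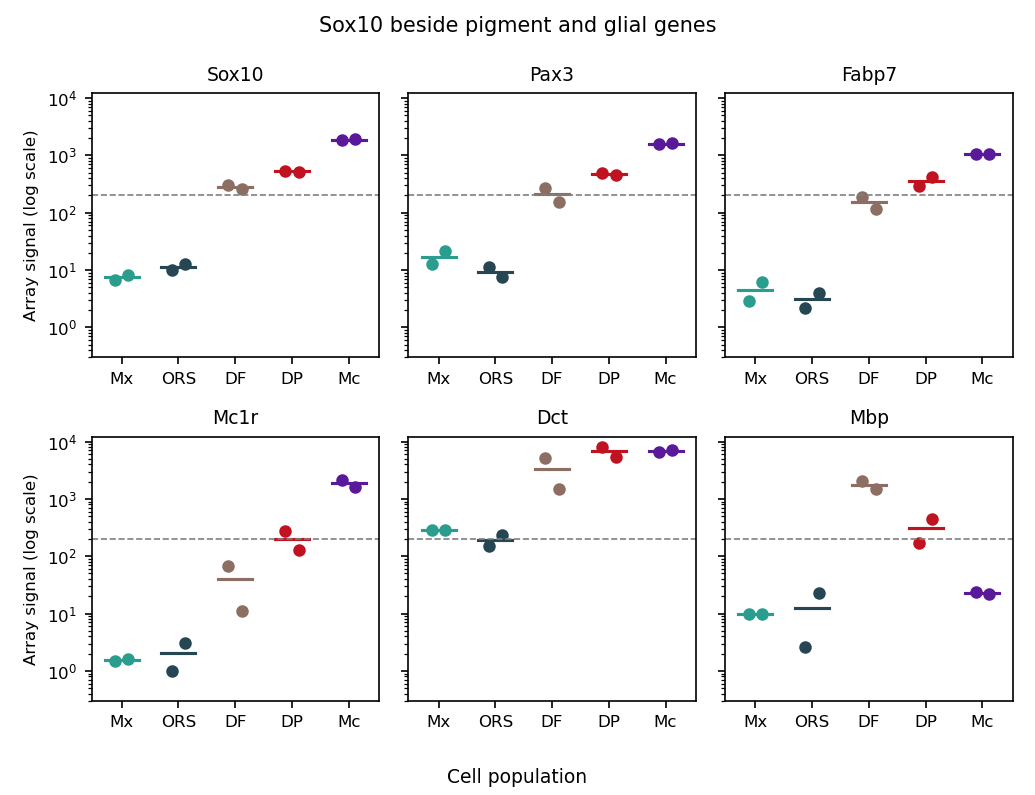
Array signal (log scale) of Sox10, Pax3, Fabp7, Mc1r, Dct and Mbp in Mx, ORS, DF, DP and Mc. Points are the 2 arrays of a population, bars their mean and the dashed line is 200; Sox10, Pax3, Fabp7 and Mc1r were highest in Mc, the Dct signals of DP and Mc overlapped, and Mbp was highest in DF.

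Between the replicates of DP and of DF, Sox10 varied less than most pigment genes. For Sox10 by 1451689_a_at, the signal in DP replicate 1 was 1.04 times that in DP replicate 2. The 13 melanocyte markers had ratios of 1.08 to 2.31 with a median of 1.94. In DF the ratio of replicate 1 to replicate 2 was 1.2 for Sox10, and 1.34 to 4.43 with a median of 3.21 for the 12 melanocyte markers that could be compared. Over all tested probe-sets with a mean of at least 100 in the population, the 5th and 95th percentiles of these ratios were 0.655 and 1.36 in DP and 0.633 and 1.42 in DF. Most melanocyte markers were thus uneven between the arrays of DP and of DF, and Sox10 was nearly even. With 1424985_a_at the Sox10 ratios were 0.968 in DP and 0.95 in DF. Not all markers were uneven: the lowest ratio in DP was that of Pax3, 1.08, with 1.72 in DF. The lowest in DF was that of Ednrb, 1.34, with 2.0 in DP. Schwann and glial markers had ratios of 0.383 to 0.953 in DP (9 genes) and 0.963 to 1.79 in DF (8 genes). Mbp, the myelin basic protein of Schwann cells, gave 2053.9 and 1490.5 in DF, 169.6 and 442.8 in DP, and 23.8 and 22.1 in Mc. The part of melanocytes and of glial cells in the Sox10 signal of DP and DF was not tested.

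Of the genes known as SoxE targets in pigment and glial cells, 9 of the 11 listed were on the array and 6 were tested, and 3 were higher in Mc than in DP and 1 lower, where 11.1% and 19.4% of all tested probe-sets were. Mitf, the master factor of melanocytes, exceeded DP 3.19-fold in Mc (limma adjusted p 0.00665), Tyr, the rate-limiting enzyme of melanin synthesis, 2.95-fold (0.0213) and Erbb3, a neuregulin receptor, 1.78-fold (0.0167). Mbp was 4.51-fold higher in DP than in Mc (0.000162). Tyrp1 and Dct, both melanin enzymes, did not pass the test (1.35-fold, adjusted p 0.542, and 1.04-fold, 0.943). Mitf, Tyr, Tyrp1 and Dct were also among the melanocyte markers, and Erbb3 and Mbp among the Schwann and glial markers, so these counts are not independent.

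Sox2, a SoxB1 factor of pluripotent and neural progenitor cells, was a DP gene with a lower level in DF. Its only probe-set gave 325.1 and 425.7 in DP, 71.1 and 69.5 in DF, and between 0.4 and 6.8 on the 6 arrays of Mx, ORS and Mc. The DP arrays were highest, the DF arrays came next, and neither overlapped another population. DP exceeded DF by 1.81 ± 0.18 (SE), 3.51-fold, with a limma adjusted p of 1.36e-05, and exceeded Mx 7.84-fold, ORS 8.06-fold and Mc 8.28-fold. DF, although under 200, was above Mx 2.23-fold (limma adjusted p 0.000176), above ORS 2.29-fold (0.000202) and above Mc 2.36-fold (0.000122). Mx, ORS and Mc were not separated, with differences of up to 0.08 and a 95% interval of -0.31 to 0.47 for Mx over Mc.

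The Sox2 level in DF was a larger share of that in DP than for the DP markers. It was 18.7% of the DP mean. The 8 tested DP markers ran from 1.81% (Crabp1, a retinoic acid binding protein) to 11.5% (Wif1, a Wnt inhibitor), with a median of 6.09%. All 8 were in the DP signature and higher in DP than in DF, with a median difference of 3.48 on the log2 scale. All 8 reached 200 in DP and none did in DF, so the signal filter favoured DP in this count. Over all tested probe-sets 7.49% were higher in DP than in DF, 11.5% were higher in DF and 19% differed in either direction. The difference in share was not tested.

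The genes whose arrays most resembled Sox2 were Corin, a serine protease of DP cells (Pearson r 0.997), the coagulation factor gene F5 (0.995), Dram1 (0.994), Runx1t1 (0.991) and Zic1, a zinc finger factor (0.987). Their means in DP ran from 250.2 for Runx1t1 to 1765 for Corin, and in DF from 58.75 to 263.7. Of the genes listed as Sox2 partners or neural progenitor genes, 12 were on the array and 6 tested, with 5 at 200 in DP and 4 in DF. Among the 6 tested, 4 were higher in DP than in DF and 1 lower, where 7.49% and 11.5% of all tested probe-sets were. The 4 were Zic1 (4.57-fold, limma adjusted p 5.17e-06), Fgfr1, a fibroblast growth factor receptor (4.24-fold, 1.64e-05), Ncam1, a neural adhesion molecule (2.81-fold, 0.000373), and Cdh2, the N-cadherin gene (1.5-fold, 0.0499). Nes, the nestin gene of neural progenitors and many mesenchymal cells, was 2.68-fold higher in DF (0.00727). Pou5f1, a partner of Sox2 in embryonic stem cells, did not exceed 16.8 on any array.

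Sox18, a SoxF factor of blood and lymph vessels, was shared by both dermal populations and highest in DP. Its probe-set gave 1468.7 and 1798.3 in DP, 798.2 and 644.4 in DF, 27.7 and 27.1 in ORS, 6.8 and 15.4 in Mx, and 7.9 and 17.2 in Mc. All 4 dermal arrays were far above the other 6, and DP did not overlap DF. DP exceeded DF by 1.13 ± 0.19 (SE), 2.18-fold, with a limma adjusted p of 0.00105, and exceeded ORS 21.6-fold, Mc 26.9-fold and Mx 27.5-fold. DF in turn exceeded ORS 9.92-fold, Mc 12.3-fold and Mx 12.6-fold. ORS, Mc and Mx were not separated, and ORS over Mx was 0.34 with a 95% interval of -0.07 to 0.76.

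The arrays came from 2 chip lots, lot A with both Mx arrays and replicate 1 of the others and lot B with the 4 remaining arrays. Sox2 led its next population by 1.63 on the log2 scale within lot A and 1.99 within lot B, Sox10 by 1.68 and 1.78 (1451689_a_at), and Sox9 by 1.91 and, with no Mx array in lot B, 2.18 (1451538_at). The step of Sox18 from DF to DP was smaller, 0.84 within lot A and 1.41 within lot B. Without DF replicate 2 or without DP replicate 2 it was 0.98, under the 2-fold limit, with limma adjusted p of 0.0172 and 0.018, and with a pseudocount of 1 in place of 50 the difference was 1.18 with an adjusted p of 0.0718, which no longer passed the test.

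The tested endothelial genes did not share the order of Sox18. Of 18 endothelial and lymphatic markers 9 were tested. All 9 reached 200 in DF and 2 of them in DP, so the signal filter favoured DF in this count. Of the 9, 8 were higher in DF than in DP and none was higher in DP, with a median difference of 2.27 on the log2 scale. Over all tested probe-sets 11.5% were higher in DF than in DP, and the median difference was 0.05. Their mean in DP ran from 1.89% to 72.8% of that in DF, with a median of 14.6%, whereas Sox18 in DP was 226% of DF. The summed signal of the 18 was 8957 and 7553 in DF and 1421 and 1638 in DP. The defining markers were low in DP: Cldn5, a tight junction protein of vessels, gave 30.2 and 28.2 there against 1096.9 and 900.7 in DF, Cdh5, the endothelial cadherin, 38.5 and 33.5 against 283.5 and 211.2, and Tie1, an endothelial receptor, 0.9 and 1.0 against 229.7 and 182.7. Only Eng and Ramp2, which other cells also carry, reached 200 in DP.

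**Figure D3:**
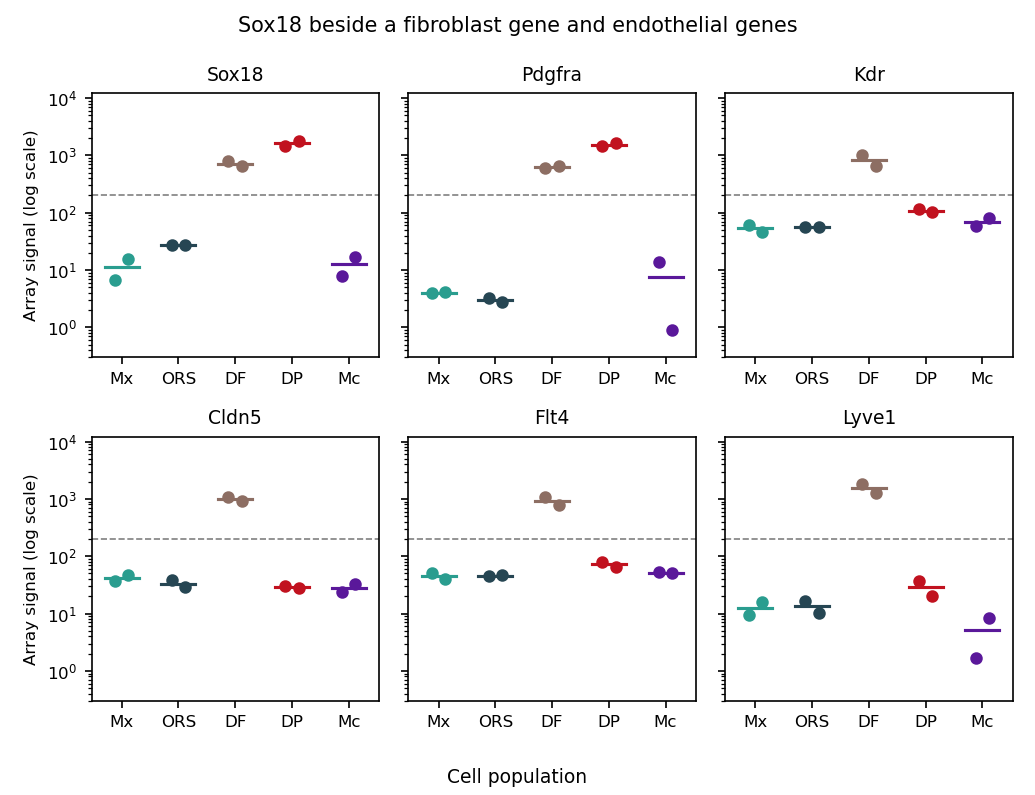
Array signal (log scale) of Sox18, Pdgfra, Kdr, Cldn5, Flt4 and Lyve1 in Mx, ORS, DF, DP and Mc. Points are the 2 arrays of a population, bars their mean and the dashed line is 200; Sox18 and Pdgfra were highest in DP and next in DF, while the 4 endothelial genes passed 200 in DF alone.

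Genes known as SoxF targets in endothelium were higher in DF than in DP where they could be tested. Cldn5, Flt4, Kdr and Cdh5 are also among the endothelial markers above, so the counts of the lists are not independent. Of 11 on the array 6 were tested, and all 6 were higher in DF than in DP, where 11.5% of all tested probe-sets were. Their median difference was 2.11 against 0.05 for all tested probe-sets. All 6 reached 200 in DF and 1 of them in DP, so the signal filter favoured DF in this count. Notch1 and Efnb2, a receptor and a ligand that epithelial cells also carry, had their highest means in Mx. Among the 5 that were not tested, Vcam1, an adhesion molecule, gave 140.7 and 213.5 in DP and 112.6 and 88.4 in DF, and Dll4, a Notch ligand, gave 54.9 and 37.9 in DP and 54.0 and 30.8 in DF. The largest differences of DF over DP were those of Cldn5 (13.2-fold, limma adjusted p 3.52e-08) and Flt4, a receptor of lymphatic growth factors (7.93-fold, 3.22e-07). Kdr, the main receptor of vascular endothelial growth factor (5.46-fold, 4.39e-06), and Cdh5 (3.43-fold, 2.72e-05) followed. The genes nearest to Sox18 over the arrays were instead Mrc2, a collagen receptor of fibroblasts (Pearson r 0.998), Olfml3 (0.995), Pdgfra, the fibroblast receptor of platelet-derived growth factor (0.995), Cacna1g (0.993) and Lama2, a laminin chain (0.993). Pdgfra had a mean of 1542 in DP and 633.9 in DF, and between 3 and 7.45 in the other populations. The part of endothelial cells in the DF signal of Sox18 was not tested.

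**Figure D4:**
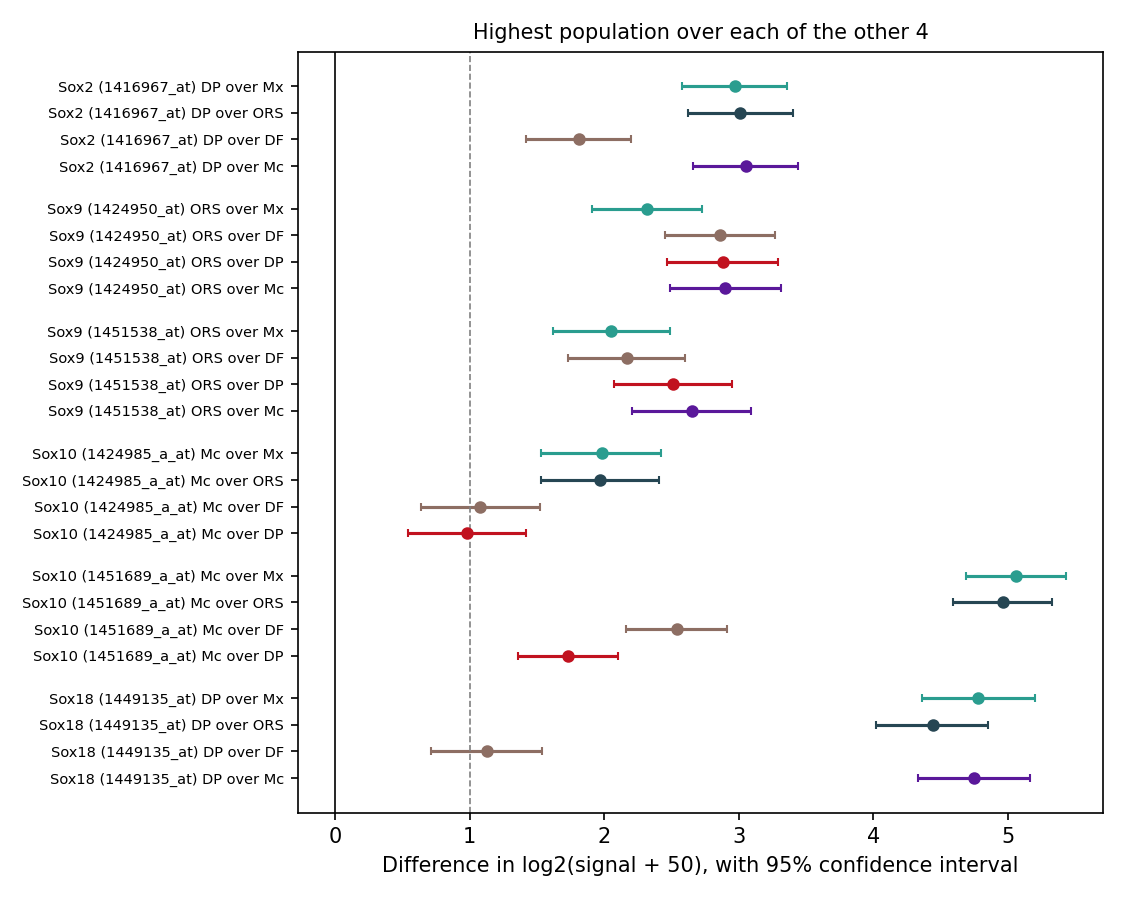
Difference in log2(signal + 50) between the population with the highest mean and each of the other 4, for the tested probe-sets of Sox2, Sox9, Sox10 and Sox18, with 95% confidence intervals from limma. The dashed line is a 2-fold difference; the smallest difference was that of Mc over DP for Sox10 by 1424985_a_at, 0.98, and Sox18 was 1.13 higher in DP than in DF.

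Sox4, a SoxC factor expressed in many progenitor and tumour cells, was present throughout and lowest in Mc. Its brightest probe-set, 1433575_at, gave 1375.3 and 1606.7 in Mx, 2168.9 and 1645.6 in ORS, 1259.9 and 1514.7 in DF, 1309.0 and 1173.3 in DP, and 825.9 and 833.0 in Mc. All 10 arrays were well above 200, both Mc arrays lay below the other 8, and the other populations lay close together. ORS exceeded Mx, the next population, by 0.34 ± 0.20 (SE; 95% interval -0.09 to 0.76, limma adjusted p 0.263). Against Mc, ORS was 2.21-fold higher (0.000423), Mx 1.75-fold (0.0045), DF 1.63-fold (0.0128) and DP 1.47-fold (0.0494). These differences from Mc were not followed under other processing settings. The trimmed mean signal was 165.1 and 167.6 on the Mc arrays, 163.5 and 171.9 on those of Mx, and 178.7 to 197.4 on the others. The part of array scale in the lower Mc level was not tested.

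The lower level in Mc recurred with the other 3 tested Sox4 probe-sets, which share their target with the first. For 1419157_at the signals were 99.8 and 84.4 in Mc against 656.3 and 319.0 in ORS, 303.2 and 368.3 in DF, 194.0 and 259.6 in DP, and 234.8 and 206.6 in Mx. Of the 4 tested probe-sets, it alone passed the test for ORS over Mx (1.89-fold, limma adjusted p 0.0292), and its ORS arrays differed widely. For 1419156_at, all 4 populations exceeded Mc, from 1.5-fold for Mx (0.037) to 1.97-fold for DF (0.0027). For 1419155_a_at, ORS (1.86-fold, 0.00634) and DF (1.78-fold, 0.0106) exceeded Mc, while Mx (1.43-fold, adjusted p 0.0709) and DP (1.4-fold, 0.125) did not pass the test. The last 2 Sox4 probe-sets were not tested, and 1455867_at did not exceed 92.7.

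The genes nearest to Sox4 in pattern were Tacc2 (Pearson r 0.961), Cdca4, a cell division gene (0.954), Timeless, a replication fork protein (0.941), Tcea1, a transcription elongation factor (0.94), and Irx2, a homeobox factor (0.936). All 5 had their lowest mean in Mc, from 40.25 for Irx2 to 289.2 for Tcea1. Of 8 genes known as SoxC targets in neural cells, 4 were tested. All 4 reached 200 in DF, 3 in DP and 1 in Mc, so the signal filter favoured DF and DP over Mc. All 4 were higher in DF than in Mc and in DP than in Mc, with medians of 1.64 and 1.30 on the log2 scale. Over all tested probe-sets 24.3% were higher in DF than in Mc and 19.4% in DP than in Mc, with medians of 0.14 and 0.09. They were Stmn1 and Stmn2, which destabilise microtubules, Ncam1, and Dbn1, an actin binding protein. Tubb3, a neuronal tubulin, gave its highest signals in Mc, 218.1 and 112.1, and was not tested.

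Sox5 and Sox11 did not reach 200 on any array. Sox5, a SoxD factor that lacks an activation domain of its own and acts with Sox9 and Sox10, had 4 probe-sets. The brightest, 1423500_a_at, gave 78.2 and 89.8 in Mc, 85.0 and 61.7 in ORS, 55.5 and 61.3 in Mx, 37.4 and 67.5 in DF, and 29.2 and 36.1 in DP. Mc and ORS overlapped, and all 4 Sox5 probe-sets together ran from 16.3 to 89.8. Sox11, a close relative of Sox4, gave 47.5 and 18.4 in Mc, 24.3 and 26.8 in DP, 31.3 and 16.4 in DF, 4.9 and 5.8 in Mx, and 7.7 and 1.3 in ORS. Its 3 dermal and melanocyte populations overlapped, and no difference was tested.

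The populations also differed in how much of each Sox signal they held. As a share of the 5 population means added together, ORS held 91% of Sox9 by 1424950_at and 72.8% by 1451538_at, DP held 82.9% of Sox2 and 67.9% of Sox18, and Mc held 69.3% of Sox10 by 1451689_a_at and 46.2% by 1424985_a_at. The highest population held between 25.2% and 35.8% of the 4 tested Sox4 probe-sets. Among all tested probe-sets, a share as high as that of Sox9 was reached by 0.372% for 1424950_at and 2.81% for 1451538_at, as that of Sox2 by 1.04%, as that of Sox10 by 3.6% for 1451689_a_at and 14.3% for 1424985_a_at, and as that of Sox18 by 3.91%. Sox4 lay among the evenly spread genes, with 28% to 75.7% of probe-sets at or above its shares. These shares take linear signals down to the floor of the array and carry no test.

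Counted by pairs of populations, between 3 and 8 of the 10 tested probe-sets differed, and the share over all tested probe-sets is given beside each count. ORS and Mc differed for 8 (41% of all tested probe-sets), with Sox4 and Sox9 higher in ORS and Sox10 in Mc, and DF and Mc also for 8 (36.3%). Mx and Mc differed for 7 (50%) and DP and Mc for 7 (30.5%). ORS and DP differed for 8 (40.1%), ORS and DF for 6 (34.9%), Mx and DF for 5 (52.2%) and Mx and DP for 5 (58.1%). Mx and ORS differed for 3 (19.4%), all higher in ORS, where 15.4% of tested probe-sets were. DF and DP differed for 3 (19%), all higher in DP, where 7.49% were, namely Sox2, Sox10 and Sox18 with 1 each. Comparisons that share a population share its arrays. Sox4, Sox9 and Sox10 each entered with more than 1 probe-set, and probe-sets of 1 gene are not independent, so the counts are not counts of genes.

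In the comparisons with Mc the direction split by gene. All 4 Sox4 probe-sets were higher in ORS and in DF than in Mc, where 25.2% and 24.3% of tested probe-sets were, and 3 of the 4 in Mx and in DP, where 25.8% and 19.4% were. Sox10 was higher in Mc in every pair for both tested probe-sets. Sox9 was higher than in Mc in ORS and Mx, and Sox2 and Sox18 in DF and DP.

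Of the 11 other Sox genes on the array, with 15 probe-sets, 4 passed the filter. Sox21, a SoxB2 factor of the hair shaft cuticle, was the only one in a signature, that of Mx, with 373.8 and 633.1 there, 160.4 and 178.5 in ORS, 29.9 and 105.4 in DF, 19.7 and 18.0 in DP, and 14.1 and 14.6 in Mc. The Mx arrays were above all others, 2.45-fold over ORS (limma adjusted p 0.00652), and both came from 1 chip lot. Its DF arrays differed as the matrix markers did, whose 13 signals summed to 1790 in DF replicate 1 and 7931 in DF replicate 2, and the part of matrix cells in DF was not tested.

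Sox6, the SoxD relative of Sox5, was above 200 in Mc alone by 1427677_a_at, at 264.7 and 264.6. DF followed at 149.7 and 157.1 and DP at 55.7 and 33.2. Mc exceeded DF 1.55-fold (limma adjusted p 0.0141), too little for a signature, and ORS and Mx lay between 2.6 and 12.1. The other Sox6 probe-set, 1426018_a_at, was not tested, and its Mc signals, 37.1 and 38.4, overlapped those of DF, 30.9 and 37.8. Sox12, the third SoxC gene, was highest in DP, at 338.2 and 392.1, and lowest in Mx, at 141.0 and 149.6, a 2.12-fold difference (0.000414), and DP over DF was 1.28-fold (adjusted p 0.235). Sox13, a SoxD gene, had similar signals in ORS, DF and DP, between 175.1 and 231.3, and lower ones in Mx and Mc, between 59.7 and 86.5. DP exceeded Mc 2.23-fold (0.000402) and Mx 2.1-fold (0.000401). Of the untested SoxF relatives of Sox18, Sox7 gave 115.2 and 99.5 in DF, its highest population.

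**Figure D5:**
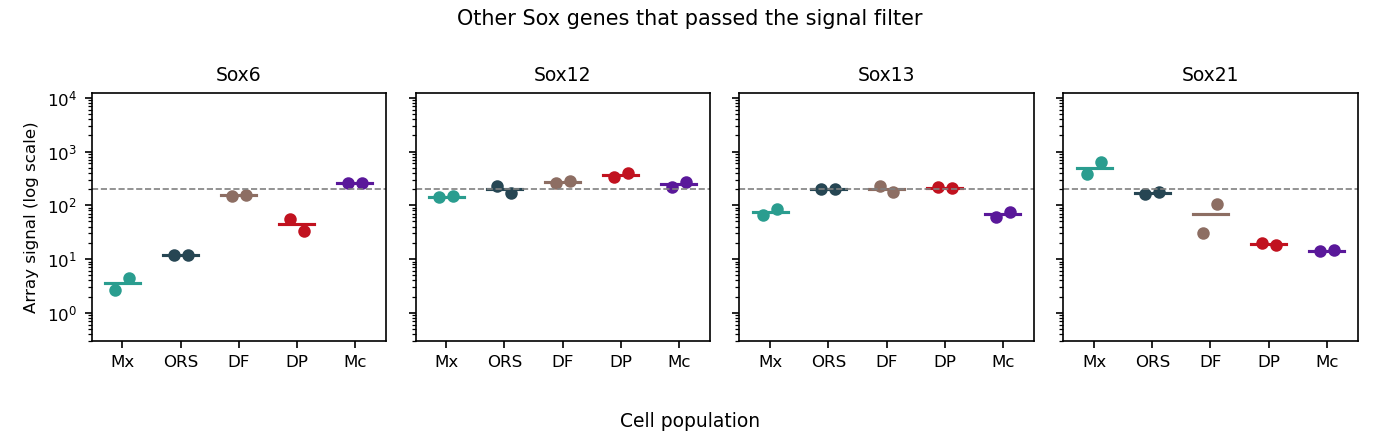
Array signal (log scale) of Sox6, Sox12, Sox13 and Sox21, the other Sox genes that passed the signal filter, in Mx, ORS, DF, DP and Mc. Points are the 2 arrays of a population, bars their mean and the dashed line is 200; Sox21 was highest in Mx and Sox6 in Mc, while Sox12 and Sox13 lay between 59.7 and 392.1 on every array.

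Promoter sequence was at hand for 4 of the 7 genes, and those of Sox2 and Sox4 are printed because they stand at opposite ends of the range from one population to all. Each runs 5′ to 3′ from 250 bases before to 50 after the gene start, from RefSeq on GRCm38.p6, at chr3:34649745-34650044 on the plus strand for Sox2 and chr13:28953650-28953949 on the minus strand for Sox4. Capitals mark CCAAT, read as ATTGG on the other strand, and the Sox-type motif ACAAAG, searched on both strands, and no matches overlap.
Sox2: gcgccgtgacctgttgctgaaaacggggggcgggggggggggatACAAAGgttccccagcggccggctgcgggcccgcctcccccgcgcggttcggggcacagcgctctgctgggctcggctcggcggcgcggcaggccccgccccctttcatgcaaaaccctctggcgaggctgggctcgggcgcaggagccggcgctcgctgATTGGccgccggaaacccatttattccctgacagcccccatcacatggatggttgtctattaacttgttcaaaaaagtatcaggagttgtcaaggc
Sox4: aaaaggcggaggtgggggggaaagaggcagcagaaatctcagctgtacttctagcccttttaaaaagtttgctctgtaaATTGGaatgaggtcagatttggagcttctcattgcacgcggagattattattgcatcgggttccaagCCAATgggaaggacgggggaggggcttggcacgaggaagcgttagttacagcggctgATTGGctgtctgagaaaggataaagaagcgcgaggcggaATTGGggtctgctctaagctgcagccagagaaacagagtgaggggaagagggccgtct

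The Sox2 window held 1 CCAAT, at position -46 from the start, and 1 ACAAAG, at -206, with a GC content of 66.3% and 27 CpG dinucleotides, a number reached by 15.5% of the 32851 promoters in the table. The Sox4 window held 4 CCAAT matches, at -171, -104, -47 and -8, and no ACAAAG, with a GC content of 52% and 12 CpG, reached by 39.6%. CCAAT occurred in 37.4% of these promoters and ACAAAG in 18.7%. The median promoter had 7 CpG and a GC content of 52.7%. These matches describe the letters of the windows, and binding was not measured.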

How the data were processed

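RNA of 5 sorted populations was measured on 10 Affymetrix MOE430A arrays, 2 for each population. The deposited values are intensity signals on a linear scale, which the authors obtained with the MAS 5.0 algorithm after 1 round of RNA amplification. The paper describes scaling of each array to a common target, whereas the trimmed means of the deposited values ran from 163.5 to 197.4. No further normalization was applied in the main fit. Of the deposited array information files, only the chip lot and the fluidics station were read. Genes came from the platform annotation: 64 control probe-sets were left out, and of 22626 others 20380 had 1 gene, 691 several and 1555 none. Present calls and raw images were not used here. Sequencing depth does not apply to arrays, whose number sets how precise a value can be.

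A pseudocount of 50 was added before log2, and limma 3.58.1 (R 4.3.3) was fitted to all arrays, estimating 1 mean per population without blocking. Residual degrees of freedom were 5 and prior degrees of freedom 7.46, with a median residual SD of 0.208. The Benjamini-Hochberg adjustment ran over all 8054 tested probe-sets, separately for each of the 10 pairs of populations. With 2 arrays against 2, a permutation test cannot reach 0.05, so the adjusted p-values depend on a spread that limma pools across arrays and probe-sets. A gene with several probe-sets was represented by that with the highest mean log2 signal among those tested. The named genes were all probe-sets of the 7 Sox genes, the other tested Sox genes, the 5 nearest genes by Pearson correlation, and of each list those with the largest difference, together with cell type markers chosen after their values were seen. A tested list gene reached 200 in some population, so counts over tested list members favour the populations where those genes are high. The members and lists were chosen with earlier results of these data known. The alternatives were pseudocounts of 16 and 1, a signal bound of 100 and none, quantile and trimmed-mean scaling, an intensity trend, chip lot, replicate number and, chosen after seeing the data, fluidics station as blocks, a fold limit of 1.5, and each array left out in turn. Tables and plots were made with matplotlib 3.10.9, pandas 2.3.3 and numpy 2.4.6 in Python 3.11.15.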

Additional observations from a re-analysis of the deposited data

How the results depend on the processing

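The value followed for each gene was the lead of its highest population over the next, on the log2 scale. Sox2 (1.71 to 2.39 over 10 alternatives), Sox9 (1.79 to 2.82) and Sox10 (1.73 to 1.87) passed the test under every alternative run, and Sox4 (0.19 to 0.37, adjusted p 0.223 to 0.531) under none. Sox18 ranged from 1.00, with the fluidics station as a block, to 1.32 with quantile normalization, and lost its call with a pseudocount of 1 (1.18, adjusted p 0.0718); the cause was not tested. Leaving out each array in turn gave 1.64 to 1.98 for Sox2, 1.91 to 2.20 for Sox9, 1.70 to 1.75 for Sox10, 0.98 to 1.27 for Sox18, 0.14 to 0.53 for Sox4, -0.01 to 0.26 for Sox5 and -0.14 to 0.37 for Sox11. The 2 extremes of Sox11 came from leaving out Mc replicate 1 and Mc replicate 2, at signals that were not tested. The count of Sox probe-sets in a signature, 5, stayed between 4 and 6 under 11 alternatives and with each array left out.

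The replicate numbers were not used to pair the samples, and the paper does not say which samples of a replicate number shared a preparation. Of 10 correlations of replicate deviations 5 were over 0.1, and they ran from -0.05 to 0.34. The highest were those of Mx with ORS (0.34) and of DF with DP (0.27), so a shared preparation remains possible and was not tested. With the replicate block, the lead of Sox18 was 1.13 (adjusted p 0.000936) and that of Sox4 0.34 (0.252), the leads of the 5 tested genes stayed on the same side of the threshold, and the count in a signature was again 5. Calls of single pairs of populations were not compared under it. Signals under about 200 set the limit for Sox5, Sox11 and the lower populations of the other genes.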
